A study of Homo sapiens with 8 samples.

Results

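Amino acid carriers of 7 solute carrier (SLC) families were described in endothelial cells made from human induced pluripotent stem cells. The members are the protein-coding genes whose symbol begins with SLC1A, SLC3A, SLC6A, SLC7A, SLC36A, SLC38A or SLC43A followed by a number, which gave 48 of the 30386 genes in the deposited count table. The rule used names and gene type only. RNA sequencing covered 4 samples named iEC, for endothelial cells, and 4 named iREC, for endothelial cells of retinal type, each lettered C to F and each at passage 1. All 8 samples came from WTC-TJP1, a widely used line of human induced pluripotent cells, so both groups share its genetic background, and no treatment or further allele is given in the labels for either group. The labels give the same cell type, endothelial cells derived from that line, for both groups, and separate them by title and sample group. They do not say whether the letters mark separate differentiations, so p-values measure the spread between these samples, which may be technical.

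Amino acids cross cell membranes through carriers. Some SLC families exchange an amino acid inside the cell for another outside, and others use the sodium gradient to concentrate amino acids in the cell. In the endothelium of the retina and brain, tight junctions close the path between cells, and carriers such as SLC7A5 with SLC3A2, SLC7A1, SLC6A6, SLC38A3 and SLC38A5 are known for moving amino acids between blood and nervous tissue. Shortage of amino acids activates the transcription factor ATF4, which binds C/EBP-ATF response elements near many carrier and tRNA synthetase genes.

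The sequences of the promoters that hold the core of this element are shown because they include both carriers that rose and a carrier that fell in iREC. The core TGATGNAA, which reads TTNCATCA on the other strand, was searched on both strands from 250 bases before to 50 bases after each start in RefSeq's GRCh38.p14 promoter table. It was present for 1217 of the 27305 genes of that table (4.46%) and for 6 of the 35 members the table holds (17.1%). The remaining 13 of the 48 members were not in the table. Positions below count from +1 at the start of transcription, each run is read 5′ to 3′ on the strand of its gene, and capitals mark the core.

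SLC1A4 (chr2:64989381-64989410, plus strand, core from -7): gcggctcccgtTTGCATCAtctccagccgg

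SLC3A2 (chr11:62881725-62881748, plus strand, core from +38): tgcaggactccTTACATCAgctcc

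SLC38A1 (chr12:46266502-46266531, minus strand, core from -4): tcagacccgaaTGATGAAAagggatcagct

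SLC7A1 (chr13:29595663-29595692, minus strand, core from +8): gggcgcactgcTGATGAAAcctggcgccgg

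SLC1A5 (chr19:46784893-46784922, minus strand, core from -97): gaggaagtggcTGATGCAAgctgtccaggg

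SLC1A3 (chr5:36596357-36596386, plus strand, core from -220): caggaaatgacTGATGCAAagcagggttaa

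SLC1A4 and SLC3A2 were higher in iREC, SLC38A1 was lower, and SLC7A1, SLC1A5 and SLC1A3 were not called different. Of the matched members that rose, 2 of 6 held the core, against 1 of 3 that fell, 3 of 19 that were not called and 0 of 7 too low to test. A match is a run of letters in this window and was not measured as a binding site.

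Total counts per sample were 14877502 to 16971865 in iEC and 13739364 to 15987839 in iREC, and the 48 members took 0.153% to 0.192% and 0.193% to 0.243% of them. Levels are given in CPM, the usual counts-per-library unit, on libraries scaled by edgeR's TMM method, and 3 counts, taken as the floor of detection, came to 0.178 to 0.215 CPM. The floor covers counting error only. The label of endothelium was checked against 12 markers, including the junction proteins PECAM1 (493 to 2605 CPM) and CDH5 (517 to 1642 CPM), all of which passed the filter on low counts. Their summed level was 7552 to 9574 CPM in iEC and 7898 to 10268 CPM in iREC C, D and E, but 4575 CPM in iREC F. Behind these sums, 8 of the 12 were called different, 5 lower in iREC, among them PECAM1 and CDH5, and 3 higher, among them the receptor TEK (58.9 ± 20.6 to 833 ± 272 CPM) and the sialomucin EMCN (4.21 ± 1.89 to 432 ± 156 CPM, SD, n = 4 each). Sample iREC F stood apart also in the summed levels of 12 mural and mesenchymal markers (4575 CPM, against 631 to 1271 in the other iREC samples and 235 to 491 in iEC), 8 epithelial markers (4933 CPM, against 303 to 1124 and 393 to 1177) and 8 pluripotency markers (519 CPM, against 54.4 to 184 and 40.0 to 92.1). Within iEC, sample F was likewise highest in the mural sum (491 CPM, against 235 to 280) and the epithelial sum (1177 CPM, against 393 to 676). It was lowest of iEC in the pluripotency sum (40.0 CPM). The keratins KRT8 (3025 CPM) and KRT18 (1538 CPM) gave most of the epithelial sum in iREC F, where CDH1 was 81.6 CPM and EPCAM 3.28 CPM. The mural sum was also higher in every iREC sample than in any iEC sample, and TAGLN, a smooth muscle gene, rose from 34.6 ± 15.7 to 619 ± 238 CPM (SD, n = 4 each; adjusted p by edgeR 0.000147). TAGLN alone gave 732 of 1014 CPM of that sum in iREC C and 318 of 631 CPM in iREC E. Of the 10 tested mural and mesenchymal markers, 3 were called higher, TAGLN, CNN1 and LUM, and LUM passed the filter only with its iREC samples. The marker RGS5 was called lower, from 116 ± 46.2 to 43.9 ± 19.0 CPM (adjusted p by edgeR 0.0210), and the other tested ones were not called. The difference in the mural sum runs along with every group difference of the carriers below, and its part in them was not tested. Of the pluripotency markers, all 3 that passed the filter were called, LIN28A and ZFP42 higher and DPPA4 lower. LIN28A alone had 482 CPM in iREC F, against 20.5 to 147 CPM in the other iREC samples, while NANOG had at most 2 counts in any sample and SOX2 at most 6. The 8 markers of retinal neurons, glia and pigment epithelium found in the table, of 10 looked for, summed to 1.72 to 2.28 CPM in iEC and to 1.37, 4.21, 4.95 and 3.67 CPM in iREC C to F. BEST1 was called higher in iREC at a low level (0.598 ± 0.102 to 2.21 ± 1.35 CPM, SD, n = 4 each; adjusted p by edgeR 0.0222), whereas RLBP1 had no more than 1 count in any sample and AQP4 had 0 counts in all iREC samples. BEST1 (11, 10, 8 and 8 counts in iEC C to F) and ZFP42 (17, 7, 14 and 14) passed the filter only with their iREC samples. Their tests were thus tilted toward calls as higher in iREC. In RNA from whole cultures, fewer cells of a type and less RNA per cell cannot be told apart.

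Of the 48 members, 36 passed the filter and were tested with edgeR's quasi-likelihood test, adjusted by the Benjamini-Hochberg method over all 15330 tested genes. At an adjusted p under 0.05, 13 members were called. Over all tested genes the same rule called 25.0%. Higher in iREC were 9 members, among them SLC1A4, SLC3A2, SLC6A15, SLC7A7, SLC7A8, SLC7A11, SLC7A14 and SLC38A4, against a background of 13.2% of tested genes. Lower in iREC were 4 members, SLC6A17, SLC38A1, SLC38A5 and SLC43A3, against 11.7%. The difference was at least 2-fold in 8 of the 9 higher members, the exception being SLC3A2, and in all 4 lower members, and at least 8-fold in 5 of the higher members. Those 5, which include SLC6A15, SLC7A8, SLC7A14 and SLC38A4, reached the filter through their iREC samples alone, so among tested genes they could differ in that direction only. The groups did not overlap in 14 of the 36 tested members, the 13 called ones and SLC1A1, where 29.1% of all tested genes did not overlap.

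The members' median log2 fold change, iREC over iEC, was 0.28, beside 0.020 over all tested genes, and the median of its absolute size was 1.13, beside 0.39. The members' medians include the 5 that were at least 8-fold higher, and SLC6A4 and SLC6A9. All of these reached the filter through iREC, which tilts the medians toward higher in iREC. The authors' deposited table lists 16 members at an adjusted p under 0.05, 12 higher and 4 lower, where it lists 16.3% of its genes. They were the 13 members called here, with 0 of opposite sign, and SLC1A1, SLC6A4 and SLC7A2, for which the authors' deposited table gives adjusted p of 0.0253, 0.0307 and 0.0125. By family, SLC7 had 4 called of 9 tested, all higher, while SLC38 had 1 higher and 2 lower of 8, SLC6 2 higher and 1 lower of 9, SLC1 1 higher of 4, SLC3 1 higher of 1, SLC43 1 lower of 3, and SLC36 had 0 called of 2 (0 also at an unadjusted p under 0.05, and 0 by DESeq2 or limma-voom). Of the higher calls, SLC7A8, SLC7A14, SLC38A4 and SLC6A15 reached the filter through iREC alone, so they could be called only as higher. The carriers of other SLC families in the table gave 55 called of 177 tested (31.1%).

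**Figure D1:**
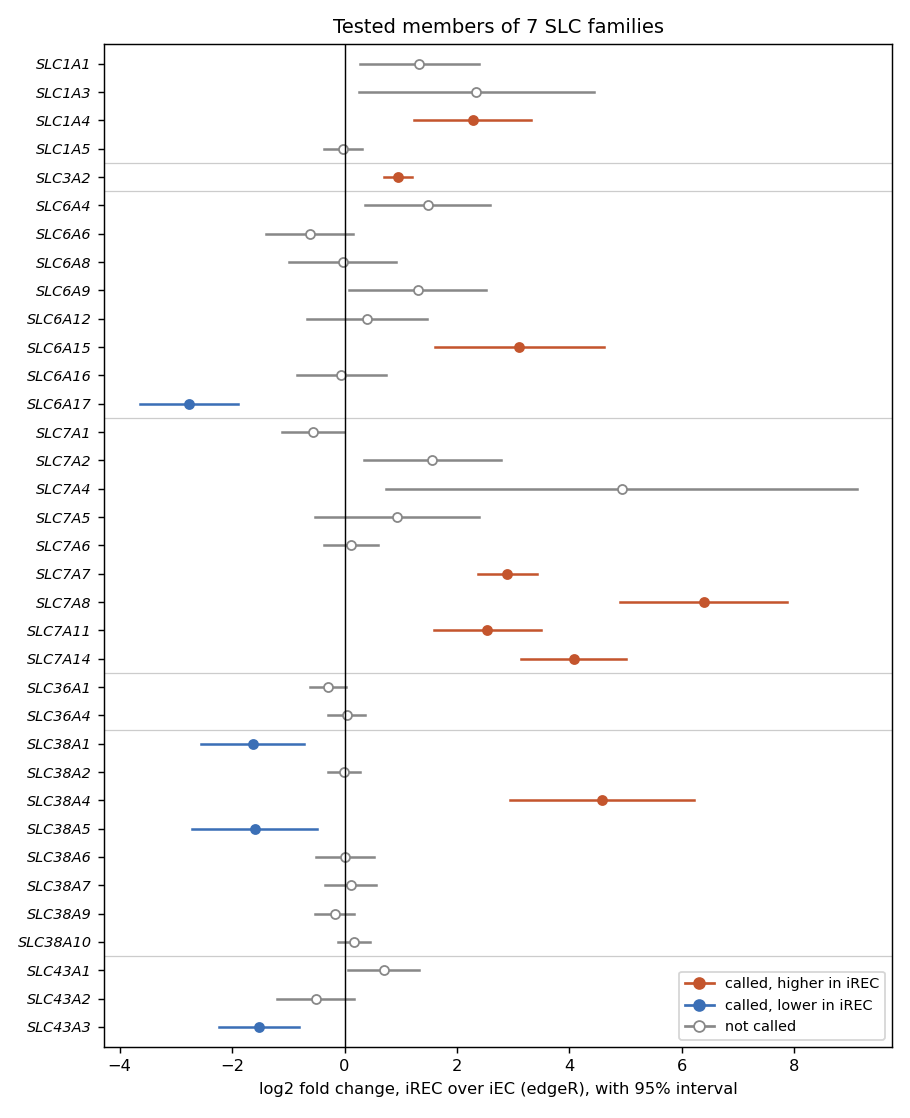
The log2 fold change, iREC over iEC, of 35 of the 36 tested members with its 95% interval from the edgeR fit, ordered by family, with filled points for called members. The SLC7 calls all lie to the right of 0, the SLC38 and SLC6 calls lie on both sides, and SLC7A4 and SLC1A3 have wide intervals. Of the SLC7 calls, SLC7A8 and SLC7A14 reached the filter through iREC alone and could lie only on that side.

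The exchangers of the SLC7 family that pair with SLC3A2 are described first. Each works as a heterodimer, in which SLC3A2 is the heavy chain that carries the light chain to the plasma membrane. SLC3A2 rose in iREC, as did its light chains SLC7A7, SLC7A8 and SLC7A11, while SLC7A5 and SLC7A6 were not called.

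SLC3A2 (ENSG00000168003, chromosome 11, 62856102 to 62888875 on GRCh38) was 96.5, 107, 99.3 and 92.8 CPM in iEC samples C, D, E and F, in that order, and 176, 187, 185 and 217 CPM in the iREC samples. Every iREC sample lay above every iEC sample, and the replicates were close together in both groups. The mean went from 99.0 ± 6.21 to 191 ± 17.6 CPM (SD, n = 4 each), a log2 fold change of 0.95 ± 0.11 (SE; adjusted p 0.000341 by edgeR).

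SLC7A8, a light chain for neutral amino acids, was low in iEC, near the floor in samples C and E, and higher in every iREC sample. In the order C, D, E, F its counts were 3, 39, 5 and 15 in iEC and 813, 1337, 2039 and 1020 in iREC, or 0.195, 2.47, 0.296 and 1.07 CPM against 53.2, 95.4, 125 and 66.8 CPM. SLC7A8 (ENSG00000092068, chromosome 14, 23125295 to 23183674) thus had the lowest iREC sample far above the highest iEC sample, and its log2 fold change of 6.39 ± 0.66 (SE; adjusted p 0.000213 by edgeR) rests on few iEC reads. Without iEC D, the highest iEC sample, it was 7.36 (edgeR adjusted p 0.000148).

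SLC7A7, which exchanges cationic for neutral amino acids, was 10.1, 18.6, 9.65 and 15.5 CPM in iEC C to F and 92.5, 101, 116 and 90.5 CPM in iREC C to F. The groups were far apart relative to their spread, with means of 13.5 ± 4.35 and 100.1 ± 11.6 CPM (SD, n = 4 each). The log2 fold change of SLC7A7 (ENSG00000155465, chromosome 14, 22773222 to 22829820) was 2.90 ± 0.23 (SE), with the smallest edgeR adjusted p of the members, 6.4e-05.

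SLC7A11, which takes up cystine in exchange for glutamate, was 16.7, 10.998, 46.2 and 28.8 CPM in iEC C to F and 204, 160, 133 and 102 CPM in iREC C to F. Both groups were spread, with iEC E highest in its group and iREC F lowest in its group, but they did not overlap. SLC7A11 (ENSG00000151012, chromosome 4, 138164097 to 138242349) had a log2 fold change of 2.54 ± 0.43 (SE; adjusted p 0.00252 by edgeR). The transcript SLC7A11-AS1 on the opposite strand overlaps 8.97% of its exon bases, at means of 0.350 and 1.74 CPM in iEC and iREC; whether the counting used the strand is not given in the sources used here.

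SLC7A5, the light chain for large neutral amino acids best known at the blood-brain and blood-retina barriers, was 43.8, 27.0, 42.1 and 26.6 CPM in iEC C to F. In iREC C to F it was 13.9, 61.8, 25.7 and 166 CPM, so that iREC held both the lowest and the highest of the 8 samples. The mean was 34.9 ± 9.36 in iEC and 66.8 ± 69.0 CPM in iREC (SD, n = 4 each). The log2 fold change of SLC7A5 (ENSG00000103257, chromosome 16, 87830023 to 87869488) was 0.94 ± 0.65 (SE; adjusted p 0.325 by edgeR), with a 95% interval from 0.697-fold to 5.26-fold. Without iREC F, the sample with the high mural, epithelial and pluripotency marker sums, it was -0.048 (edgeR adjusted p 0.947). Whether other cell types were present in iREC F and had a part in its SLC7A5 level was not tested.

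**Figure D2:**
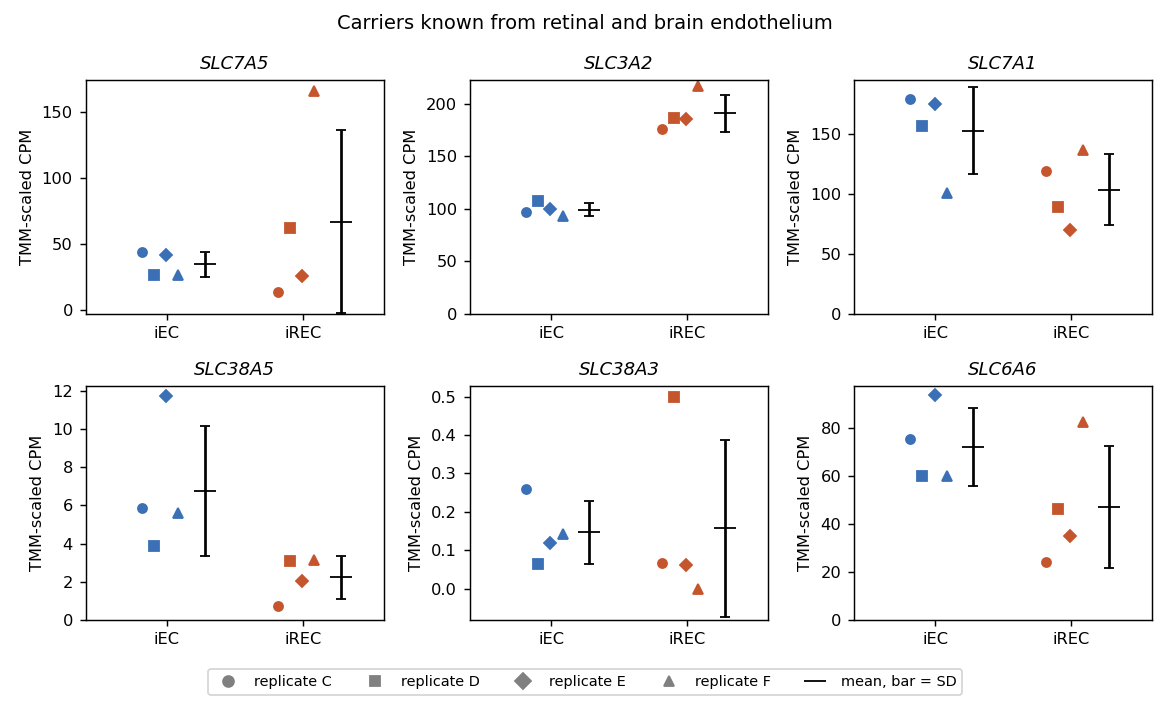
TMM-scaled CPM of the 6 carriers known from retinal and brain endothelium in each sample, with symbols for the replicate letters and the mean and SD of each group beside the points. SLC3A2 is separated between the groups, SLC7A5 runs from 13.9 to 166 CPM within iREC, and SLC38A3 is near 0 in all 8 samples.

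SLC7A6, a close relative of SLC7A7, was 31.7 ± 9.39 in iEC and 34.3 ± 5.32 CPM in iREC (SD, n = 4 each), a difference that was not called (log2 fold change 0.11 ± 0.21, SE; adjusted p 0.741 by edgeR). SLC7A6OS on the opposite strand overlaps 44.4% of its exon bases, so its counts are uncertain. SLC7A10, the remaining light chain of SLC3A2 in the table, had at most 6 counts in any sample. SLC3A1, the heavy chain that pairs with SLC7A9 in kidney and gut, had at most 3 counts, and SLC7A9 at most 10.

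Levels were then compared between genes as CPM per kb of the deposited gene length. The 6 light chains of SLC3A2 summed to 17.0 ± 3.26 CPM per kb in iEC and 67.9 ± 10.3 CPM per kb in iREC (SD, n = 4 each), with ranges of 14.3 to 21.6 and 54.5 to 79.5. SLC3A2 itself was 19.1 ± 1.20 and 36.9 ± 3.41 CPM per kb, so the ratio of the light chain sum to SLC3A2 was 0.688 to 1.12 in the iEC samples and 1.601 to 1.95 in the iREC samples. No test was run on these sums, which are descriptions. The deposited gene length covers the exon bases of all annotated transcripts of a gene. Levels per kb, and the ratio, thus depend on which transcripts are expressed and do not give the proportion of the protein chains. The sum also includes SLC7A6, whose counts are uncertain.

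The makeup of the light chains also differed. SLC7A5 gave the largest share of that sum in every iEC sample, from 37.1% to 54.1%. In iREC, SLC7A5 gave 5.36% in C, 18.5% in D, 8.07% in E and 43.9% in F. The largest share was that of SLC7A11 in iREC C (38.7%), of SLC7A7 in iREC D (28.1%) and E (33.7%), and of SLC7A5 in iREC F. SLC7A8 went from 0.191% to 2.88% of the sum in iEC to 14.0% to 31.0% in iREC, and SLC7A6 from 22.0% to 27.7% to 6.47% to 7.01%.

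**Figure D3:**
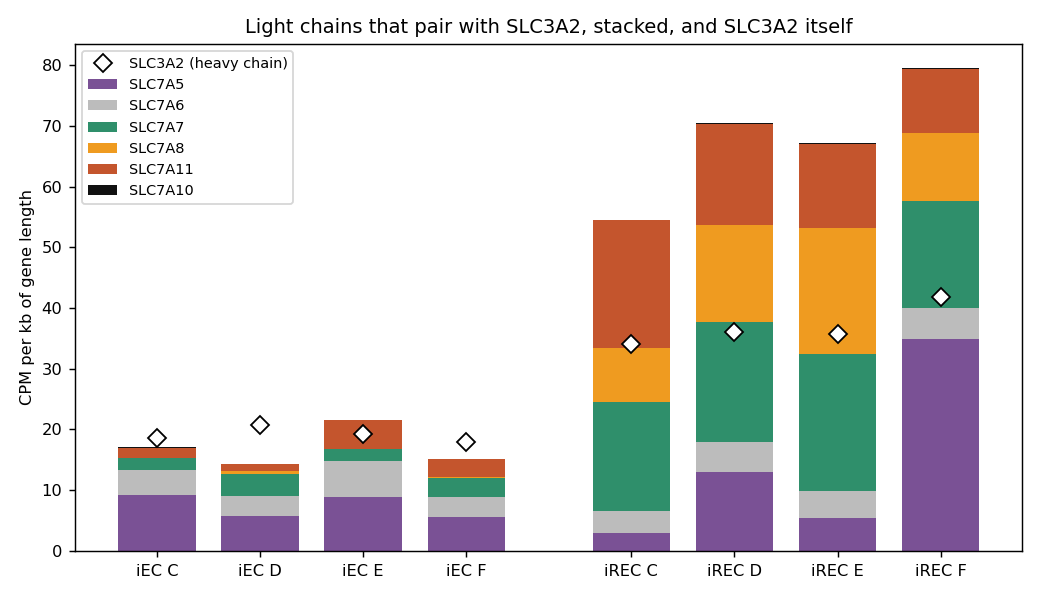
Stacked bars give the levels of the SLC3A2 light chains in CPM per kb of gene length in each sample, and open diamonds give SLC3A2 on the same axis. The stacks reach 14.3 to 21.6 in iEC, near the diamonds, and 54.5 to 79.5 in iREC, above them, with SLC7A8 at most a thin band in the iEC bars.

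The cationic amino acid carriers of the SLC7 family work without a heavy chain. SLC7A1, the main arginine and lysine carrier of many cells, was 180, 157, 176 and 101 CPM in iEC C to F and 119, 88.9, 69.9 and 137 CPM in iREC C to F, so iEC F fell within the iREC range. The means of SLC7A1 (ENSG00000139514, chromosome 13, 29509410 to 29595688) were 153 ± 36.5 and 104 ± 29.8 CPM (SD, n = 4 each), and the log2 fold change of -0.57 ± 0.24 (SE) did not pass the threshold (edgeR adjusted p 0.122). Without iEC F it was -0.72 and passed (edgeR adjusted p 0.0450).

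SLC7A14, a lysosomal relative of these carriers, was higher in iREC at a low level. Its counts were 3, 3, 4 and 2 in iEC C to F and 46, 41, 87 and 34 in iREC C to F. Every iREC sample was above every iEC sample, and SLC7A14 (ENSG00000013293, chromosome 3, 170459584 to 170586074) had a log2 fold change of 4.07 ± 0.42 (SE; adjusted p 0.000209 by edgeR), which rests on few iEC reads. Its means were 0.191 ± 0.0383 and 3.37 ± 1.34 CPM (SD, n = 4 each).

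SLC7A2, an arginine carrier that can be induced, averaged 11.1 ± 3.40 in iEC and 32.8 ± 30.1 CPM in iREC (SD, n = 4 each). It was not called (log2 fold change 1.56 ± 0.54, SE; adjusted p 0.0641 by edgeR), and iREC F had 77.4 CPM against 13.3 to 23.9 in the other iREC samples. SLC7A4, a member with no settled substrate, was 0.820 ± 1.37 and 24.4 ± 44.96 CPM, of which iREC F alone had 91.8 CPM, and was not called (log2 fold change 4.93 ± 1.86, SE; adjusted p 0.0830 by edgeR). Without iREC F the log2 fold changes of SLC7A2 and SLC7A4 were 0.69 and 1.24 (edgeR adjusted p 0.118 and 0.518), and in iEC, too, SLC7A4 was highest in F, at 2.86 CPM. SLC7A3 had at most 10 counts in any sample, and those were in iREC F. Whether other cell types were present in iREC F and had a part in these levels was not tested.

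In the SLC1 family, SLC1A4, a carrier of alanine, serine, cysteine and threonine, rose, and its relative SLC1A5, the glutamine carrier, was not called. SLC1A4 was 44.7, 125, 23.2 and 37.6 CPM in iEC C to F and 264, 277, 326 and 252 CPM in iREC C to F. The iREC samples were alike, whereas iEC D was high within iEC but still below each iREC sample. The mean of SLC1A4 (ENSG00000115902, chromosome 2, 64988477 to 65023865) went from 57.7 ± 45.9 to 280 ± 32.5 CPM (SD, n = 4 each), a log2 fold change of 2.28 ± 0.46 (SE; adjusted p 0.00664 by edgeR). It was 2.99 without iEC D (edgeR adjusted p 0.000148).

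SLC1A5 was 92.0 ± 15.6 in iEC and 90.2 ± 10.3 CPM in iREC (SD, n = 4 each). Its log2 fold change was -0.028 ± 0.15 (SE; adjusted p 0.911 by edgeR), with a 95% interval from 0.779-fold to 1.23-fold. An antisense gene overlaps 23.4% of its exon bases, at 0.136 and 0.339 CPM. Of the glutamate carriers of the family, SLC1A1 was 2.47 ± 1.61 in iEC and 6.23 ± 1.34 CPM in iREC, with no overlap between the groups, and did not pass (log2 fold change 1.33 ± 0.47, SE; adjusted p 0.0684 by edgeR). SLC1A3 was 1.94 ± 0.395 and 9.90 ± 14.9 CPM, not called (edgeR adjusted p 0.0962), with 32.2 CPM in iREC F against 1.34 to 3.43 CPM in the other iREC samples; without iREC F its log2 fold change went from 2.35 to 0.34 (edgeR adjusted p 0.556). SLC1A2 had at most 11 counts and SLC1A7 at most 10 in any sample.

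The SLC38 family holds sodium-coupled carriers of glutamine, alanine and other small neutral amino acids. Here SLC38A1 and SLC38A5 fell, SLC38A4 rose, and SLC38A2, the member with the highest level, was not called.

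SLC38A1 was 473, 369, 458 and 287 CPM in iEC C to F and 84.6, 130, 55.8 and 242 CPM in iREC C to F. The groups came closest in the F samples, and they did not overlap. SLC38A1 (ENSG00000111371, chromosome 12, 46183063 to 46270017) decreased from 397 ± 86.3 to 128 ± 81.9 CPM (SD, n = 4 each), a log2 fold change of -1.63 ± 0.41 (SE; adjusted p 0.0177 by edgeR). The call was lost without iREC D (log2 fold change -1.64, edgeR adjusted p 0.0507).

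SLC38A2, which is induced by amino acid shortage in many cells, was 356, 426, 456 and 457 CPM in iEC C to F and 416, 392, 394 and 476 CPM in iREC C to F. The ranges of the groups overlapped, with a log2 fold change of -0.013 ± 0.13 (SE; adjusted p 0.953 by edgeR) and a 95% interval from 0.813-fold to 1.21-fold. Per kb of gene length it had the highest level of the 48 members in both groups, 64.1 ± 7.20 in iEC and 63.6 ± 5.91 in iREC (SD, n = 4 each), with no overlap with the member next in order.

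SLC38A5, a glutamine carrier of developing retinal vessels, was low in both groups, at 5.85, 3.86, 11.7 and 5.58 CPM in iEC C to F and 0.720, 3.07, 2.02 and 3.14 CPM in iREC C to F. The groups did not overlap, though iEC D and iREC F were close. SLC38A5 (ENSG00000017483, chromosome X, 48458537 to 48470256) decreased from 6.75 ± 3.43 to 2.24 ± 1.14 CPM (SD, n = 4 each), a log2 fold change of -1.59 ± 0.49 (SE; adjusted p 0.0424 by edgeR). With 1 sample left out in turn, 6 of 8 fits no longer called it, all except those without iEC D or iREC F, and reached an edgeR adjusted p of 0.127 without iEC E.

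SLC38A4 was close to absent in iEC, with counts of 2, 0, 5 and 0 in C to F, and was detected in iREC with 35, 51, 54 and 33. These gave 0.106 ± 0.140 and 2.85 ± 0.733 CPM (SD, n = 4 each). SLC38A4 (ENSG00000139209, chromosome 12, 46764761 to 46832408) had a log2 fold change of 4.58 ± 0.73 (SE; adjusted p 0.00191 by edgeR), or 5.77 without iEC E, so its size rests on few iEC reads. SLC38A3, known from astrocytes and brain endothelium, had counts of 4, 1, 2 and 2 in iEC C to F and 1, 7, 1 and 0 in iREC C to F and was below the filter, so that a difference was not detectable at this depth.

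The other members of SLC38 act largely inside the cell or are less well described, and none of the 4 was called. SLC38A7, a lysosomal glutamine carrier, was 48.6 ± 14.7 in iEC and 52.3 ± 4.25 CPM in iREC (SD, n = 4 each), and SLC38A9, the lysosomal arginine sensor upstream of mTORC1, was 17.7 ± 2.49 and 15.6 ± 1.27 CPM. SLC38A10 was 117 ± 11.8 and 131 ± 16.8 CPM, and SLC38A6 was 9.60 ± 2.03 and 9.62 ± 1.996 CPM. Their edgeR adjusted p ran from 0.383 for SLC38A10 to 0.994 for SLC38A6.

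In the SLC6 family of sodium- and chloride-coupled carriers, SLC6A15 rose and SLC6A17 fell. SLC6A15, a carrier of branched-chain amino acids and proline, was 0.520, 0.316, 0.888 and 0.787 CPM in iEC C to F and 1.96, 3.50, 3.18 and 13.3 CPM in iREC C to F. The iREC samples all lay above iEC, and iREC F was well above the other 3. The log2 fold change of SLC6A15 (ENSG00000072041, chromosome 12, 84859488 to 84913615) was 3.11 ± 0.67 (SE; adjusted p 0.00874 by edgeR), and 2.18 without iREC F (edgeR adjusted p 0.00678).

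SLC6A17, a carrier of neutral amino acids in synaptic vesicles, was 18.3, 14.0, 10.95 and 9.09 CPM in iEC C to F and 1.05, 1.28, 2.32 and 3.01 CPM in iREC C to F. The groups did not overlap, and every iREC sample was below 4 CPM. SLC6A17 (ENSG00000197106, chromosome 1, 110150486 to 110202202) decreased from 13.1 ± 4.03 to 1.92 ± 0.917 CPM (SD, n = 4 each), a log2 fold change of -2.76 ± 0.39 (SE; adjusted p 0.000992 by edgeR).

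SLC6A6, the taurine carrier, was 75.4, 59.9, 94.1 and 59.9 CPM in iEC C to F and 24.1, 46.3, 35.1 and 82.6 CPM in iREC C to F. The iREC samples C, D and E lay below all of iEC, and iREC F lay within its range. SLC6A6 (ENSG00000131389, chromosome 3, 14402576 to 14489349) was not called with all samples (72.3 ± 16.3 and 47.0 ± 25.4 CPM, SD, n = 4 each, with a log2 change of -0.62 ± 0.34, SE; adjusted p 0.218 by edgeR). Without iREC F it passed the threshold, at -1.04 (edgeR adjusted p 0.0159). Whether other cell types were present in iREC F and had a part in this was not tested.

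The remaining tested members of SLC6 were low and not called. The serotonin carrier SLC6A4 was 0.834 ± 0.545 in iEC and 2.32 ± 0.917 CPM in iREC (SD, n = 4 each), with an edgeR adjusted p of 0.0546. The glycine carrier SLC6A9 was 0.760 ± 0.519 and 1.89 ± 0.842 CPM, the betaine and GABA carrier SLC6A12 0.601 ± 0.243 and 0.798 ± 0.318 CPM, SLC6A16 2.09 ± 0.740 and 2.02 ± 0.495 CPM, and the creatine carrier SLC6A8 6.20 ± 3.15 and 6.04 ± 2.70 CPM. The edgeR adjusted p of these 4 ran from 0.111 to 0.963. CCDC24 on the opposite strand overlaps 7.83% of the exon bases of SLC6A9. The dopamine carrier SLC6A3 and the neutral amino acid carriers SLC6A19 and SLC6A20 had at most 2 counts in any sample, and the GABA carrier SLC6A13 at most 5.

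The SLC36 family includes carriers that couple amino acids to protons, in part at the lysosome. SLC36A1 was 38.05 ± 2.999 in iEC and 30.9 ± 4.79 CPM in iREC (SD, n = 4 each; log2 fold change -0.30 ± 0.14, SE; adjusted p 0.153 by edgeR). SLC36A4 was 19.5 ± 2.83 and 20.03 ± 1.26 CPM (adjusted p by edgeR 0.884), and SLC36A3 had at most 3 counts in any sample.

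The SLC43 family includes SLC43A1 and SLC43A2, which carry large neutral amino acids without exchange, and SLC43A3, known as a carrier of purine bases. SLC43A3 was 34.8, 38.3, 29.8 and 13.3 CPM in iEC C to F and 9.81, 12.3, 10.99 and 7.34 CPM in iREC C to F. The sample iEC F was close to the iREC range, and the groups did not overlap. SLC43A3 (ENSG00000134802, chromosome 11, 57406954 to 57427580) decreased from 29.04 ± 11.1 to 10.1 ± 2.10 CPM (SD, n = 4 each), a log2 fold change of -1.52 ± 0.32 (SE; adjusted p 0.00759 by edgeR). A second protein-coding gene model on its strand shares 29.9% of its exon bases, so reads there are uncertain. SLC43A1 was 4.17 ± 0.901 and 6.76 ± 1.82 CPM (adjusted p 0.105 by edgeR) and SLC43A2 50.4 ± 22.5 and 35.3 ± 9.93 CPM (adjusted p by edgeR 0.253), and neither was called with all samples.

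**Figure D4:**
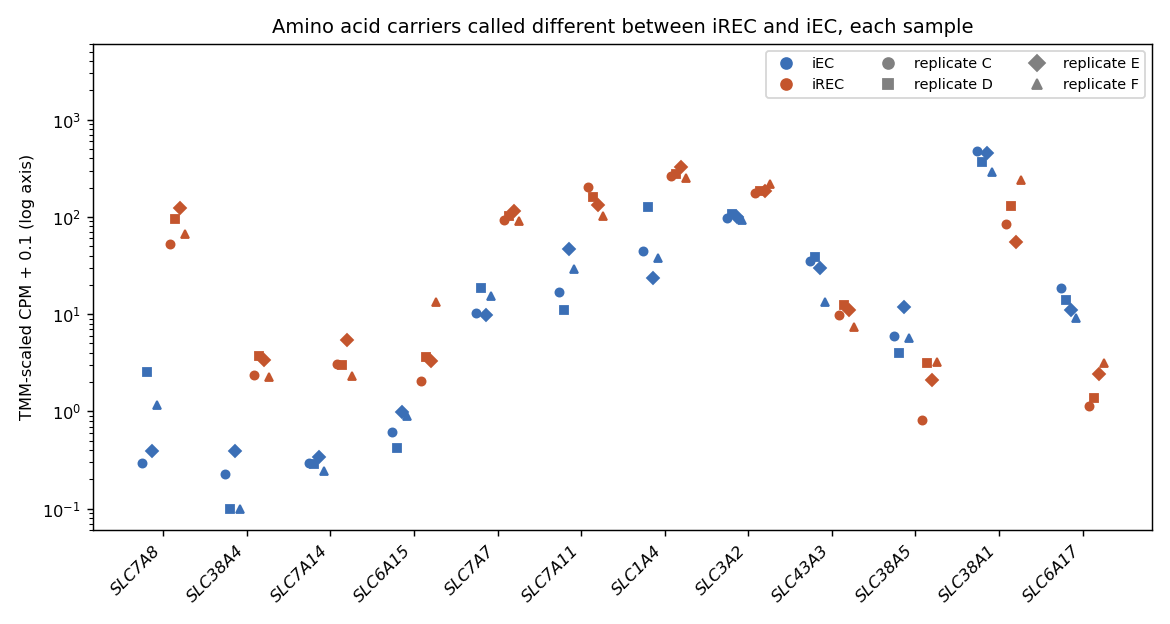
Of the 13 called members, 12 are plotted by sample as TMM-scaled CPM plus 0.1 on a log axis, with iEC in blue, iREC in orange and symbols for the replicate letters. In each of these genes the groups do not overlap; SLC7A8, SLC38A4 and SLC7A14 have iEC points near or below the floor of 0.178 to 0.215 CPM.

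Below SLC38A2, the order of levels per kb differed between the groups. In iEC it was followed by SLC38A1 (39.6 ± 8.62 CPM per kb), SLC1A5 (27.6 ± 4.68), SLC7A1 (19.9 ± 4.74) and SLC3A2 (19.1 ± 1.20, SD, n = 4 each), neighbours whose ranges overlapped. In iREC it was followed by SLC1A4 (40.3 ± 4.69 CPM per kb) and SLC3A2 (36.9 ± 3.41), which overlapped, and then by SLC1A5 (27.1 ± 3.10) and SLC7A7 (19.5 ± 2.26), each apart from the neighbour above it. Summed per family, the SLC7 carriers were 38.7 ± 6.94 CPM per kb in iEC and 96.0 ± 33.3 CPM per kb in iREC (SD, n = 4 each). The iEC sums ran from 30.3 to 46.0 and the iREC sums from 72.5 to 145. The highest was that of iREC F, in which SLC7A4 and SLC7A5, neither of them called, had 37.5 and 34.9 CPM per kb. The SLC1 sum was 36.8 ± 10.6 and 70.6 ± 2.95 CPM per kb, and the SLC38 sum 131 ± 9.31 and 106 ± 11.9 CPM per kb. These sums were not tested.

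Sample iREC F was the highest of its group in 17 and the lowest in 13 of the 36 tested members. In SLC7A5, SLC7A4, SLC1A3, SLC7A2, SLC6A15 and SLC6A8 it was over 2-fold above the next iREC sample.

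The genes that answer to amino acids, sense them or use them are given as background to the carriers, from 5 lists. Of 26 tested genes of the ATF4 response, 1 was higher and 4 were lower (19.2% called, below the 25.0% of all tested genes), with a median log2 fold change of -0.29. Without iREC F, 11 of 26 genes of the list were called in either direction, where 26.7% of all tested genes were called. VLDLR, a lipoprotein receptor, rose from 7.92 ± 1.24 to 45.8 ± 8.63 CPM (SD, n = 4 each; adjusted p by edgeR 4.4e-05). The pseudokinase TRIB3 fell from 111 ± 6.89 to 39.7 ± 6.25 CPM (adjusted p by edgeR 0.00011), PPP1R15A, which reverses the translation block of the stress response, from 122 ± 17.4 to 59.9 ± 5.78 CPM (adjusted p 0.00067 by edgeR) and CHAC1, which degrades glutathione, from 22.5 ± 7.79 to 8.83 ± 2.20 CPM (adjusted p by edgeR 0.0083). ATF4 itself was 219 ± 40.4 and 185 ± 34.6 CPM and was not called (edgeR adjusted p 0.350).

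All 20 cytosolic tRNA synthetases, which attach amino acids to their tRNAs, were tested, and 9 were lower and 0 higher in iREC, where 11.7% of all tested genes were lower and 13.2% higher, with a median log2 fold change of -0.35. HARS fell from 182 ± 14.9 to 92.5 ± 11.4 CPM, GARS from 263 ± 23.6 to 135 ± 29.8 CPM and CARS from 91.4 ± 9.01 to 53.8 ± 5.61 CPM (SD, n = 4 each; adjusted p by edgeR 0.000611, 0.0027 and 0.00195). The count of 9 fell to 5 without iREC D and without iREC E. The core of the response element was present for 7 of the 16 synthetases in the promoter table (43.8%) and 4 of 22 ATF4 response genes (18.2%). In the lists described below, it was present for 2 of 24 enzymes (8.33%), 1 of 24 genes of mTORC1 sensing (4.17%) and 0 of 16 other carriers. The share over all genes of the promoter table was 4.46%. Of the enzymes, BCAT1, which was lower in iREC, held the core. The sequence is shown for the called synthetases and ATF4 response genes named here that hold the core, in the same way as for the carriers.

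CARS (chr11:3057407-3057436, minus strand, core from -2): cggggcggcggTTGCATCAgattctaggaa

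GARS (chr7:30594834-30594863, plus strand, core from -33): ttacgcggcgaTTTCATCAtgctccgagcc

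CHAC1 (chr15:40953251-40953280, plus strand, core from -209): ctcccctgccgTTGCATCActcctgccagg

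All 3 were lower in iREC, as was SLC38A1 among the carriers printed above. The other 5 synthetases with the core (AARS, IARS, MARS, NARS and TARS) were not called, so genes holding the core were found among those higher, lower and not called.

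Of 29 tested genes through which mTORC1, a growth regulator at the lysosome, senses amino acids, 3 were higher and 2 lower (17.2% called, below the 25.0% of all tested genes; median log2 fold change -0.15). SESN3, a sestrin, rose from 9.57 ± 3.80 to 112 ± 43.6 CPM (SD, n = 4 each; adjusted p by edgeR 0.000249), BMT2, a sensor of S-adenosylmethionine, from 8.17 ± 1.47 to 14.99 ± 2.69 CPM and LAMTOR3, a Ragulator subunit, from 23.3 ± 4.52 to 35.7 ± 4.10 CPM (adjusted p by edgeR 0.0136 and 0.0256). The Rag GTPase RRAGD fell from 5.80 ± 3.05 to 2.35 ± 0.456 CPM and NPRL3, a GATOR1 subunit, from 42.8 ± 7.14 to 29.5 ± 3.57 CPM (adjusted p by edgeR 0.0303 and 0.0315). The count of 5 fell to 2 without iREC D and to 3 without iEC C, E or F. The share called over all tested genes was also lower in these fits, at 17% without iREC D and 19.7%, 18.3% and 23% without iEC C, E and F. With each sample left out in turn, RRAGD and NPRL3 were each called in 3 of 8 fits and LAMTOR3 in 4 of 8, with adjusted p by edgeR of up to 0.0785, 0.099 and 0.081, each highest without iREC D.

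Of 23 tested enzymes that make or use the carried amino acids, 3 were higher and 5 lower (34.8% called, beside 25.0% of all tested genes, and 13.0% higher, near the 13.2% of all; median log2 fold change -0.11). CDO1, which oxidises cysteine, rose from 1.75 ± 0.679 to 37.7 ± 16.6 CPM (SD, n = 4 each; adjusted p by edgeR 0.000174), GGT5, which cleaves glutathione conjugates, from 1.02 ± 0.505 to 19.7 ± 9.63 CPM and GCLC, the catalytic subunit for the first step of glutathione synthesis, from 18.1 ± 2.55 to 31.7 ± 5.23 CPM (adjusted p by edgeR 0.000493 and 0.00723). The glycine decarboxylase GLDC fell from 7.49 ± 0.636 to 1.53 ± 0.303 CPM, glutamine synthetase GLUL from 186 ± 17.1 to 118 ± 14.8 CPM and the branched-chain aminotransferase BCAT1 from 316 ± 24.4 to 223 ± 18.3 CPM (adjusted p by edgeR 0.000236, 0.00495 and 0.0102). GLUD1 and GOT2 were also lower.

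Of 16 tested genes outside the 7 families listed as carriers of amino acids or related compounds, 1 was higher and 4 lower (31.2% called, beside 25.0% of all tested genes; median log2 fold change 0.012). The mitochondrial aspartate and glutamate carrier SLC25A13 rose from 73.2 ± 12.4 to 110 ± 19.1 CPM (SD, n = 4 each; adjusted p by edgeR 0.0295). SFXN3, a mitochondrial serine carrier, fell from 126 ± 27.4 to 66.9 ± 3.23 CPM, the mitochondrial glutamate carrier SLC25A22 from 34.8 ± 1.63 to 22.7 ± 2.83 CPM and the lysosomal SLC17A5 from 75.9 ± 20.9 to 44.5 ± 6.60 CPM (adjusted p by edgeR 0.00299, 0.00724 and 0.0212). The count of 5 fell to 2 without iEC E or iREC D and to 3 without iREC C. Over all tested genes, these fits called 18.3% (without iEC E), 17% (without iREC D) and 22.1% (without iREC C). SLC25A13 was called in 3 of the 8 fits without a sample, losing its call without iEC E or F or iREC C, D or E, with an adjusted p by edgeR of up to 0.0715. SLC17A5 lost its call without iEC E or iREC D.

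**Figure D5:**
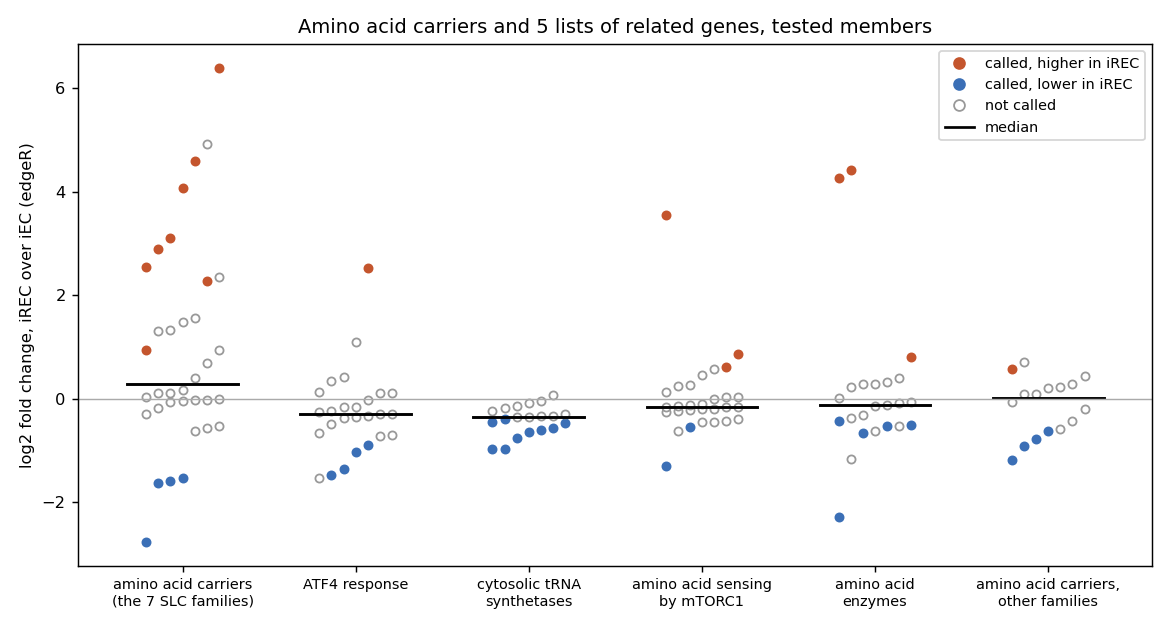
The log2 fold change, iREC over iEC, of 35 of the 36 tested amino acid carriers and of each tested gene of the 5 lists, with filled points for called genes and a line at the median of all tested genes of each list. The carriers shown spread from -2.76 to 6.39, the median of all 36 was 0.28, and the called tRNA synthetases all lie below 0.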

How the data were processed

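Poly-A RNA of 8 samples was sequenced with a dUTP second strand, per the labels' protocols. Reads were processed with fastp and HISAT2 2.0.5 on hg38, per the submitters' processing notes; the counting program is not given in the sources used here. The authors deposited whole-number counts per gene, gene lengths, log2 fold changes and adjusted p-values. All 48 members matched GENCODE release 29 in identifier, start and end. Here the deposited counts were filtered with filterByExpr, scaled by TMM and tested with edgeR 4.0.16 (quasi-likelihood, all 8 samples, group the only term), with a gene called at a Benjamini-Hochberg adjusted p under 0.05; R was 4.3.3. The script was tested on simulated data. Same-letter samples of the groups were not treated as pairs. A called member and its values are not reported here. Per-sample values are given for 6 carriers known from retinal and brain endothelium and for called members that average 1 CPM or more in either group, group means for other tested members, and up to 3 called genes a direction for each list. The members and lists were chosen with earlier results of these data known. Alternatives were other scalings, filters, DESeq2 1.42.0, limma-voom 3.58.1, a replicate block, protein-coding genes only and leaving out each sample. No read depth per base or molecular identifier is given, and 4 samples a group limit the precision.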

Additional observations from a re-analysis of the deposited data

Results flagged for a closer look

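The creatine carrier SLC6A8 was 10.09 CPM in iREC F against 4.51 to 4.996 CPM in the other 3 iREC samples, a sample far from the rest of its group. This gap was 0.875 of the group's whole range on the log2 CPM scale. It was the single case among 72 groups of 4 samples examined over the tested members, where chance gives about 3.6.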

How the results depend on the processing

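The 13 called members stayed called under the 3 other scalings, with no filter, with DESeq2 or limma-voom, and over protein-coding genes alone. The stricter filter (at least 1 CPM and a mean of 50 counts) tested 28 members and called 10, as SLC7A14, SLC38A4 and SLC6A15 were not tested. Gained were SLC6A4 (library size only), SLC7A2 (no filter), SLC7A2, SLC1A1 and SLC6A4 (DESeq2), and SLC1A1 and SLC6A4 (limma-voom). With the letter as a replicate block, 14 members were called, gaining SLC1A1 and SLC7A4 and losing SLC38A5 (edgeR adjusted p 0.0688), and 3334 genes were called in all. For a check of pairing, the mean of each gene within its group was subtracted from its log2 CPM. The correlations of what remained, between same-letter samples of iEC and iREC, were 0.168 (C), -0.0794 (D), 0.0291 (E) and 0.250 (F). They do not measure how alike the samples are in expression. Their signs were mixed, so the letters were not used as pairs. The value for F was the highest between any iEC and any iREC sample, so a link between the F samples remains possible. Leaving out each sample gave 9 to 11 higher members and 2 to 5 lower ones. The same fits called from 17% (without iREC D) to 26.7% (without iREC F) of all tested genes. Over these fits the ATF4 list had 4 to 11 called genes (11 without iREC F), the synthetases 5 to 9, mTORC1 sensing 2 to 6, the enzymes 6 to 10 and the carriers outside the 7 families 2 to 6. DESeq2 called 8 ATF4 genes, and the block left 3 carriers outside the 7 families. Over all genes with an adjusted p, DESeq2 called 23.2% and the block 21.7%. Some uncalled members changed sign. With upper quartile scaling, SLC1A5 was 0.0013 and SLC38A2 0.017; the stricter filter gave SLC38A2 0.010. SLC6A8 was 0.028 with limma-voom and 0.014 with the replicate block, and SLC38A6 was -0.024 without a filter and -0.014 with DESeq2. Leaving out each sample in turn, the log2 fold change ran from -0.048 to 1.27 for SLC7A5, -0.024 to 0.30 for SLC38A7, -0.12 to 0.064 for SLC1A5, -0.10 to 0.021 for SLC38A2, -0.23 to 0.18 for SLC6A16, -0.047 to 0.11 for SLC36A4, -0.40 to 0.29 for SLC6A8 and -0.14 to 0.095 for SLC38A6. The cause was not tested. Members with few counts are limited by depth.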
